A study of Mus musculus with 18 samples.

Results

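Ileal gene expression was compared between 3 CD-1 mouse pups that had received Lactobacillus reuteri DSM 17938 and 3 that had received the vehicle, phosphate-buffered saline (PBS), 4 h after a single dose by mouth. These 6 arrays are all of the arrays of both groups and 6 of the 18 in the series, chosen by their labelled treatment and time. The DSM 17938 pups were given 100000000 colony-forming units in 50 uL of PBS by orogastric gavage, and the PBS pups the same volume of vehicle. The pups taken at 4 h were 11 days old and those taken at 24 h 12 days, and all were specific pathogen-free, of both sexes and of the outbred CD-1 stock. At these ages mice are still suckling. Epithelium was cut by laser capture microdissection from 24 sections of the distal 4 cm of the ileum of each animal, and each array holds the RNA of 1 mouse. Litters and cages are not given in the sources used here. Values for other mice, 3 per group, were used beside these: pups given ATCC PTA 6475, another strain of the same species, at the same dose and taken at 4 h, and pups given DSM 17938 or PBS and taken at 24 h.

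L. reuteri is a lactic acid bacterium of the gut that is given to infants as a probiotic. The epithelium meets bacteria through receptors that signal by the adaptor Myd88 and by NF-kB, and it answers with secreted antimicrobial proteins, with oxidases that make reactive oxygen species, and with acute-phase proteins such as serum amyloid A. In suckling rodents the ileal enterocyte also has duties that it gives up at weaning: it takes up intact milk protein, carries lactase, packs milk fat into chylomicrons, and makes enzymes of gluconeogenesis, by which the small intestine can make glucose.

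All levels are normalised log2 intensities, on which a difference of 1 is a 2-fold difference, and each difference is the DSM 17938 mean minus the PBS mean with its standard error (SE) from limma. Of 16835 features tested, 12804 of them named genes, 0 passed a Benjamini-Hochberg adjusted p of 0.05 in limma (background 0%), and the lowest adjusted p was 0.716. An unadjusted p of 0.05 was reached by 562 features (3.34%), 280 higher (1.66%) and 282 lower (1.68%) in DSM 17938 pups. If no feature differed, a share of about 0.05 would be expected to reach it, which is more than was seen. The arrays of the groups did not overlap in 1356 features (8.05%), 768 of them higher (4.56%) and 588 lower (3.49%) in DSM 17938 pups. With 3 mice against 3 and no difference, a share of 0.1 would be expected not to overlap, again more than was seen. When each array was scaled by its median in place of quantile normalisation, 309 features reached that unadjusted p and 87 of them were higher. The median difference over all features was 0.006, the median SE was 0.183 and the median SD between mice of 1 group was 0.227. Only 33 features were over 2-fold higher and 35 over 2-fold lower. Every gene named here is therefore given as a measured difference that did not pass the adjusted test (adjusted p of 0.716 or more). Counts of list genes at an unadjusted p of 0.05 are to be read beside the shares of all features, 1.66% higher and 1.68% lower. Counts above or below 0 are to be read beside 51.3% and 48.7% of all features. Lists and members were chosen with earlier results of these data known, so no list count is a test.

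Mean raw signals were 398, 354.4 and 323.1 on the DSM 17938 arrays and 459.7, 427.9 and 303.2 on the PBS arrays, and between 20607 and 22848 probes were detected on each of the 6. Transcripts of the sex chromosomes marked 1 of 3 DSM 17938 pups and 2 of 3 PBS pups as male. All 8 general epithelial markers were detected, among them keratin Krt8, at 13.42 to 13.80 in DSM 17938 pups and 13.11 to 13.71 in PBS pups. Transcripts of the underlying wall were detected as well: smooth muscle actin Acta2 stood at 14.81 to 14.97 in DSM 17938 pups and 14.61 to 15.17 in PBS pups. The mean level of the 5 smooth muscle markers was 12.03 to 12.15 in DSM 17938 pups and 11.70 to 12.60 in PBS pups, and that of the 6 fibroblast markers was 10.55 to 11.08 in DSM 17938 pups and 10.09 to 11.07 in PBS pups. In such tissue, fewer cells of a type and less RNA per cell cannot be told apart.

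**Figure D1:**
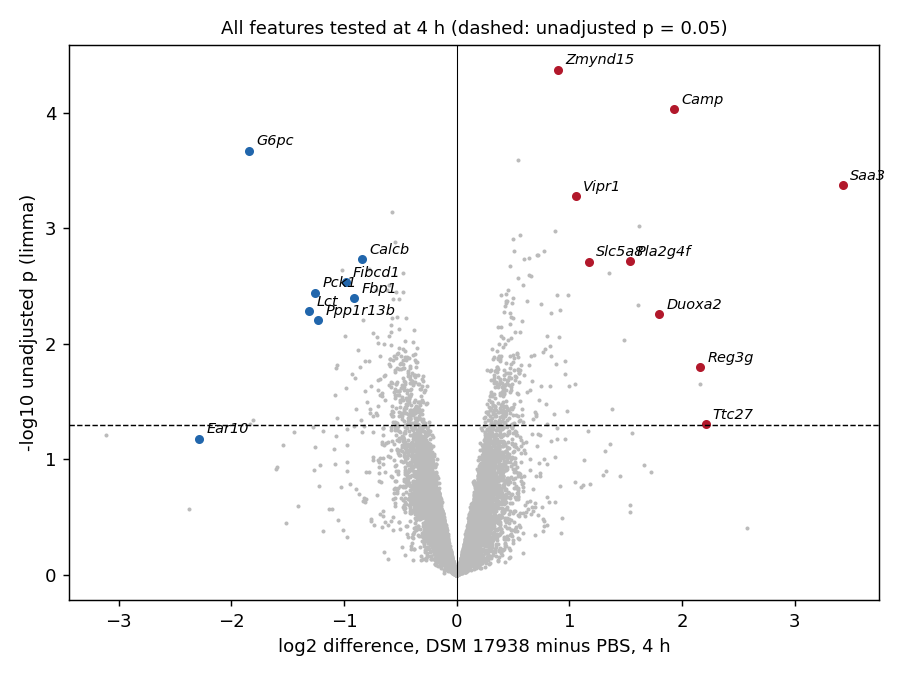
Each point is 1 of the 16835 features at 4 h, placed by its log2 difference (DSM 17938 minus PBS, x axis) and the -log10 of its unadjusted limma p (y axis), with the dashed line at 0.05. Saa3 lies farthest to the right at 3.43, Camp and Zmynd15 lie highest, and G6pc stands apart on the left at -1.84.

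The acute-phase gene Saa3, which encodes an epithelial serum amyloid A, had the largest positive difference of all features. Its level was 5.48, 10.48 and 9.15 in DSM 17938 pups, against 5.10, 4.66 and 5.08 in PBS pups. Replicates 2 and 3 of the DSM 17938 pups were far above every PBS pup, while replicate 1 was only just above them. The difference was 3.43 ± 0.78 (SE, n = 3 each), or 10.7-fold. With a larger offset added to the signals it was 2.66, and from the authors' deposited log2 values 2.62, so the fold depends on how low signals are treated. Leaving out 1 DSM 17938 pup gave 2.37 without replicate 2, the highest, and 3.03 without replicate 3, with adjusted p of 1 and 0.999 by limma. It gave 4.87 ± 0.34 without replicate 1, the lowest, with an adjusted p of 5.8e-06, which rests on removing the pup that differed from the others.

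The cathelicidin gene Camp, whose product is a secreted antimicrobial peptide, was higher in every DSM 17938 pup. It measured 8.79, 9.76 and 8.82 in DSM 17938 pups and 6.75, 7.84 and 7.0 in PBS pups. The groups were almost 1 unit apart at their nearest points, and the DSM 17938 pup of replicate 1 lay with the others. The difference was 1.93 ± 0.37 (SE, n = 3 each), a 3.8-fold higher level (adjusted p = 0.783 by limma).

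Reg3g, a lectin that kills Gram-positive bacteria, measured 6.57, 10.14 and 9.30 in DSM 17938 pups, against 5.52, 6.64 and 7.36 in PBS pups. Here replicate 1 of the DSM 17938 pups lay among the PBS pups and the others above them all, and the difference was 2.16 ± 0.80. Its relative Reg3b stood at 13.29, 14.46 and 13.52 in DSM 17938 pups and at 12.18, 13.70 and 12.87 in PBS pups, so the groups overlapped (difference 0.84 ± 0.43). The iron-binding lactoferrin gene Ltf measured 6.18, 7.99 and 7.70 in DSM 17938 pups and 6.85, 6.12 and 5.76 in PBS pups, with a difference of 1.05 ± 0.41. Lcn2, whose product withholds iron from bacteria by binding their siderophores, measured 5.12, 8.67 and 7.26 in DSM 17938 pups and 5.14, 5.62 and 6.16 in PBS pups (difference 1.38 ± 0.60). In both genes the DSM 17938 pup of replicate 1 was at the level of the PBS pups. Over the 19 antimicrobial peptides and lectins tested, of 20 listed, 15 lay above 0, where 51.3% of all features did, and the median difference was 0.45. At an unadjusted p of 0.05, 3 were higher and 0 lower, against 1.66% and 1.68% of all features. The exception in size was Retnlb, a goblet cell protein active against bacteria, at 4.55, 12.11 and 11.12 in DSM 17938 pups and 10.91, 12.75 and 11.24 in PBS pups: it was undetected in 1 DSM 17938 pup and bright in the other 5 mice.

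Genes of the epithelial oxidases had their lowest DSM 17938 value in the same pup. Duoxa2, the maturation factor that the hydrogen peroxide-producing enzyme Duox2 needs, measured 6.34, 9.79 and 8.43 in DSM 17938 pups and 6.39, 6.06 and 6.71 in PBS pups. The difference was 1.80 ± 0.56. It was 1.0 without replicate 2 of the DSM 17938 pups (adjusted p = 1 by limma) and 2.72 ± 0.38 without replicate 1, the lowest (adjusted p = 0.014). Noxa1, the activator subunit of the NADPH oxidase Nox1, measured 6.26, 8.30 and 7.83 in DSM 17938 pups and 6.90, 6.46 and 6.10 in PBS pups (difference 0.98 ± 0.43). Its organiser subunit Noxo1 measured 10.45, 11.17 and 11.03 in DSM 17938 pups and 10.63, 10.06 and 10.48 in PBS pups (difference 0.49 ± 0.20). In all these genes replicates 2 and 3 of the DSM 17938 pups were above every PBS pup and replicate 1 was not. The inducible nitric oxide synthase gene Nos2 was detected in 3 DSM 17938 pups and in 0 PBS pups, at least 1.12-fold higher. Of the 5 oxidase genes tested, of 9 listed, 5 lay above 0 and 4 were higher at an unadjusted p of 0.05, against 1.66% of all features, and the median difference was 0.49. Duox1, Duox2 and Nox1 were on the array but detected in fewer than 3 of the 18 arrays, so they were not tested.

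In a phospholipase and a cytokine antagonist, replicate 1 was again the DSM 17938 pup nearest to the PBS pups. Pla2g4f, a cytosolic phospholipase A2 that releases fatty acids from membrane lipids, measured 6.61, 8.36 and 8.40 in DSM 17938 pups and 6.51, 6.16 and 6.10 in PBS pups, a difference of 1.54 ± 0.42. Il1rn, the natural antagonist of the interleukin-1 receptor, measured 4.68, 6.77 and 5.82 in DSM 17938 pups and 4.78, 4.83 and 5.04 in PBS pups, a difference of 0.88 ± 0.32. Il1rn was named after its values were seen, as 1 of 10 features that passed the adjusted test once the DSM 17938 pup of replicate 1 was left out, 9 of them higher and 1 lower; leaving out any 1 of the other 5 mice gave 0. The others with gene names were Saa3, Duoxa2, Mboat1, Sprr1a, Zmynd15, Pla2g4f and, as the lower one, G6pc. That pup was the lowest of the DSM 17938 pups in 13 of the 19 antimicrobial genes, 6 of the 8 acute-phase genes and 5 of the 5 oxidase genes, and in 32.4% of all features. This was not particular to defence genes. The same pup was the lowest in 17 of 23 interferon-stimulated genes, 6 of 7 chylomicron apolipoproteins and 10 of 15 triglyceride genes. It was the lowest in only 4 of 25 bacterial sensors and inflammasome genes and 2 of 14 goblet cell genes.

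**Figure D2:**
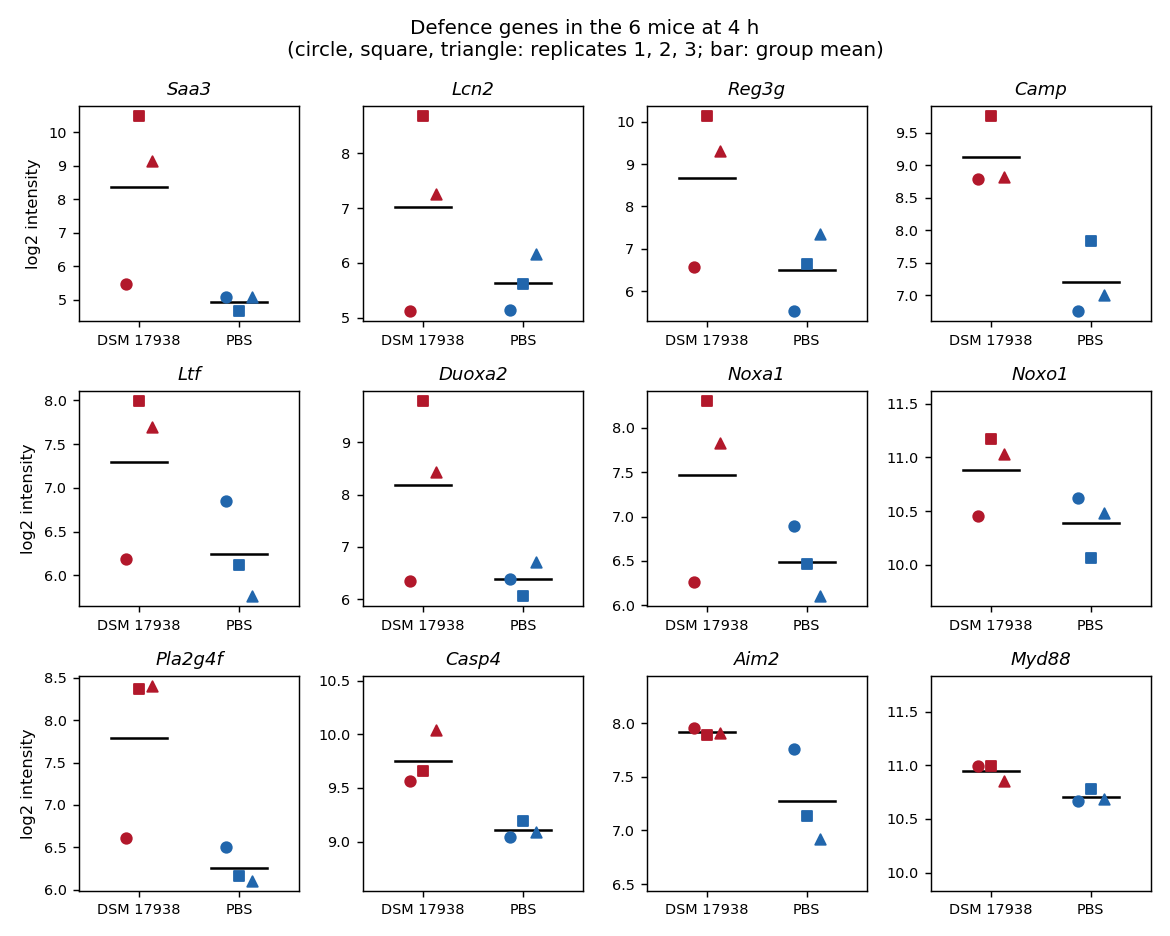
Log2 intensity (y axis) of 12 defence genes in each of the 3 DSM 17938 pups (left, red) and 3 PBS pups (right, blue), with the group mean as a bar and a symbol for each replicate number. In Saa3, Lcn2, Reg3g, Duoxa2 and Noxa1 the DSM 17938 pup of replicate 1 (circle) lies with or next to the PBS pups, whereas in Camp, Casp4 and Myd88 all 3 lie above them.

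Neutrophils also carry Camp, Ltf and Lcn2, so markers of other cells were read beside these genes. Of 8 neutrophil markers, 5 were tested. Their mean log2 level was 4.75 to 5.19 in DSM 17938 pups and 4.53 to 4.86 in PBS pups, and the log2 of their summed level was 7.14 to 7.62 in DSM 17938 pups and 6.88 to 7.21 in PBS pups. The calprotectin gene S100a8 measured 5.56, 5.96 and 6.09 in DSM 17938 pups and 4.41, 5.37 and 5.43 in PBS pups (difference 0.80 ± 0.62). The granule protease gene Elane was detected in 0 DSM 17938 pups and 1 PBS pup, and Mpo, Ngp and Cxcr2 in too few arrays to be tested. Paneth cells, the crypt cells that secrete antimicrobial peptides, had 10 of 10 tested genes above 0 with a median of 0.31, but 0 at an unadjusted p of 0.05. Lyz1, a Paneth cell lysozyme, measured 12.56, 13.24 and 12.11 in DSM 17938 pups and 10.65, 12.78 and 12.46 in PBS pups, and so overlapped (difference 0.68 ± 0.48). The part of either cell type in the defence genes was not tested.

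Because these genes were higher in DSM 17938 pups, the 250 bases before the transcription start of Saa3, Camp and Duoxa2 were read from RefSeq (GRCm38.p6) for motifs of factors that act in inflammation. They lie at chr7:46715677-46715926 (minus strand), chr9:109849457-109849706 (minus strand) and chr2:122298650-122298899 (plus strand). Capitals mark matches, on either strand, to 4 motifs: NF-kB (GGANTTTCC), C/EBP (TTGCNNAA), the core of the cAMP response element (TGACGT) and the TATA box (TATAAA).
Saa3: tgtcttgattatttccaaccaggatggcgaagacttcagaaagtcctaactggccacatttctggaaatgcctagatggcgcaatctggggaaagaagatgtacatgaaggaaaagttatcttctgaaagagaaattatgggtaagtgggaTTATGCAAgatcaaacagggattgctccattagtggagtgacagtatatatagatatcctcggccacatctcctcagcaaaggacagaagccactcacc
Camp: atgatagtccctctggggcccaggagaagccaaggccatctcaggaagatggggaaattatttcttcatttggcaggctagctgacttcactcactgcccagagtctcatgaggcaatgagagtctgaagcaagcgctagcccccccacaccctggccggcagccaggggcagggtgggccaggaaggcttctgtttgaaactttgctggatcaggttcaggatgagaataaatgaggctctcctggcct
Duoxa2: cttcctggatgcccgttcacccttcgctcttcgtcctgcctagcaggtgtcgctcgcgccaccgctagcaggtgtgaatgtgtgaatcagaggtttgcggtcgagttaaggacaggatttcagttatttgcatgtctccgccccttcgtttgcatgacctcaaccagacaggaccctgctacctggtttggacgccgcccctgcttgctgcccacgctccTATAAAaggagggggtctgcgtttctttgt
Saa3 had 1 C/EBP match, on the opposite strand, 99 to 92 bases before the start, and Duoxa2 1 TATA box, 30 to 25 bases before it. Camp had no match to these letters in this window. Over 32851 promoters of the same length, 9.56% held the C/EBP letters, 12.4% the TATA letters, 6.47% the cAMP element core and 1.07% the NF-kB letters. No matches overlapped one another.

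Among sensors of bacteria, differences ranged from -0.38 to 0.74. Cd14, which hands lipopolysaccharide to its receptor, measured 7.11, 9.14 and 8.40 in DSM 17938 pups and 7.79, 7.05 and 7.64 in PBS pups, with overlap (difference 0.73 ± 0.36, and 0.26 to 1.28 on leaving out 1 mouse). Ly96, the coreceptor MD-2, measured 8.86, 8.91 and 9.43 in DSM 17938 pups and 8.93, 8.2 and 8.73 in PBS pups, with overlap (difference 0.45 ± 0.22). Casp4, the mouse caspase-11 that binds bacterial lipopolysaccharide in the cytosol, measured 9.57, 9.65 and 10.04 in DSM 17938 pups and 9.04, 9.19 and 9.09 in PBS pups, without overlap (difference 0.65 ± 0.17). Other probes of Casp4 gave 0.22 and 0.33. Aim2, a sensor of cytosolic DNA, measured 7.95, 7.89 and 7.91 in DSM 17938 pups and 7.76, 7.13 and 6.92 in PBS pups (difference 0.64 ± 0.18). Myd88, the adaptor of Toll-like and interleukin-1 receptors, measured 11.00, 10.99 and 10.85 in DSM 17938 pups and 10.66, 10.78 and 10.68 in PBS pups (difference 0.24 ± 0.11). In Casp4, Aim2 and Myd88 the DSM 17938 pup of replicate 1 stood with the other two. Of 25 sensors and inflammasome genes tested, of 30 listed, 3 were higher and 0 lower at an unadjusted p of 0.05, against 1.66% and 1.68% of all features, 15 lay above 0, where 51.3% of all features did, and the median difference was 0.08, against -0.01 under median scaling.

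Downstream of these sensors, Nfkbiz, an NF-kB cofactor that turns on antimicrobial genes, measured 10.19, 10.19 and 10.01 in DSM 17938 pups and 9.72, 9.83 and 9.68 in PBS pups (difference 0.39 ± 0.14). It was the 1 gene of 16 NF-kB subunits, inhibitors and feedback genes at an unadjusted p of 0.05, which 3.34% of all features reached. Il17re, a subunit of the interleukin-17C receptor of epithelium, differed by 0.54 ± 0.20. It was likewise alone among the 14 genes listed under the interleukin-22 and STAT3 axis, although its own ligand is another cytokine. Of 19 chemokines, neutrophil-attracting Cxcl1 measured 6.33, 5.89 and 6.63 in DSM 17938 pups and 5.29, 6.15 and 5.72 in PBS pups (difference 0.56 ± 0.24), and its groups overlapped. Ccl17, a chemokine for T cells, was detected in 0 DSM 17938 pups and 3 PBS pups and was at least 1.43-fold lower. The 23 interferon-stimulated genes tested had a median difference of 0.14 with 0 at an unadjusted p of 0.05. The antiviral gene Rsad2 measured 7.11, 7.93 and 9.98 in DSM 17938 pups and 5.69, 6.50 and 8.74 in PBS pups: replicate 3 of each group was the highest, and the groups overlapped (difference 1.36 ± 0.71).

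Other higher genes with the smallest p were diverse. Zmynd15, a zinc finger gene known as a transcriptional repressor in testis, had the smallest unadjusted p of all named genes: 9.07, 9.46 and 9.59 in DSM 17938 pups and 8.28, 8.58 and 8.56 in PBS pups (difference 0.90 ± 0.16, adjusted p = 0.716 by limma), but its other probe gave 0.04. Clec2d, the lectin-like ligand of a natural killer cell receptor, measured 11.40, 11.27 and 11.21 in DSM 17938 pups and 10.66, 10.97 and 10.75 in PBS pups (difference 0.50 ± 0.13). Anxa2, a membrane-binding annexin, measured 13.64, 13.93 and 13.92 in DSM 17938 pups and 13.51, 13.39 and 13.17 in PBS pups (difference 0.47 ± 0.13). In each of these the groups did not overlap. Sprr1a, a small proline-rich protein of stressed epithelia, was detected in 2 DSM 17938 pups and 0 PBS pups and was at least 1.38-fold higher. The keratin of differentiated villus cells, Krt20, measured 9.15, 10.00 and 9.51 in DSM 17938 pups and 9.00, 8.75 and 8.53 in PBS pups (difference 0.80 ± 0.34). Mia, Themis3, Krtap26-1, Acsm3 and Cdo1 were also among the higher genes with the smallest p or the largest size, with differences of 0.72, 0.73, 1.35, 0.99 and 0.60. Arhgef38, a higher gene too, was detected in 3 DSM 17938 pups and 0 PBS pups and was at least 1.22-fold higher.

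Of the 7 sugar and monocarboxylate transporters listed, 5 were tested. Slc5a8, the sodium-coupled carrier of lactate and butyrate, measured 10.64, 11.27 and 11.77 in DSM 17938 pups and 10.61, 10.16 and 9.38 in PBS pups. Replicate 1 of each group came close together and the others lay well apart (difference 1.18 ± 0.32, 2.26-fold). Slc2a1, the glucose carrier GLUT1, measured 9.54, 9.73 and 9.80 in DSM 17938 pups and 9.46, 9.27 and 8.74 in PBS pups (difference 0.53 ± 0.20). The lysosomal and endosomal glucose carrier Slc2a8 was lower, at 7.73, 7.69 and 7.72 in DSM 17938 pups and 8.45, 7.66 and 8.26 in PBS pups (difference -0.41 ± 0.18). Slc5a1, which takes up glucose from the lumen, differed by 0.02 ± 0.22.

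The 3 enzymes G6pc, Pck1 and Fbp1 of gluconeogenesis were lower in DSM 17938 pups, and here the DSM 17938 pup of replicate 1 lay below the PBS pups as well. G6pc, whose enzyme removes the phosphate from glucose-6-phosphate to release free glucose, measured 8.90, 7.08 and 7.82 in DSM 17938 pups and 9.64, 9.51 and 10.15 in PBS pups. All 3 DSM 17938 pups were below all 3 PBS pups, and the difference was -1.84 ± 0.39, a 3.58-fold lower level. Pck1, the phosphoenolpyruvate carboxykinase that starts the pathway from oxaloacetate, measured 5.56, 5.05 and 4.87 in DSM 17938 pups and 6.91, 5.61 and 6.73 in PBS pups, nearly touching at 1 mouse of each group (difference -1.25 ± 0.37). A second Pck1 probe gave -0.57, and with a larger offset the first gave -0.79. Fbp1, the fructose-bisphosphatase between them, measured 8.78, 8.27 and 8.78 in DSM 17938 pups and 9.96, 9.33 and 9.27 in PBS pups, without overlap (difference -0.91 ± 0.27).

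The regulators and the carrier named next lay in the same direction, but 2 of the 14 list members lay above 0, the highest at 0.55. Cebpa, a C/EBP transcription factor of liver and gut metabolism, measured 5.33, 5.68 and 5.51 in DSM 17938 pups and 6.14, 6.12 and 5.80 in PBS pups (difference -0.51 ± 0.21, and -0.32 with a larger offset). Sik1, a kinase that is induced by cAMP, measured 5.74, 5.30 and 5.60 in DSM 17938 pups and 5.77, 6.21 and 5.74 in PBS pups, whose nearest values almost met (difference -0.36 ± 0.17). Slc37a4, which carries glucose-6-phosphate to G6pc in the endoplasmic reticulum, measured 6.80, 6.46 and 6.52 in DSM 17938 pups and 7.04, 6.63 and 7.13 in PBS pups, with overlap (difference -0.34 ± 0.16). Of the 14 gluconeogenesis genes and regulators tested, of 16 listed, 12 lay below 0, where 48.7% of all features did. At an unadjusted p of 0.05, 5 were lower and 0 higher, against 1.68% and 1.66% of all features. In 6 of the 14 the groups did not overlap and DSM 17938 pups were lower, against 3.49% of all features, and the median difference was -0.28. These counts are partly expected, since the list was chosen with earlier results of these data known. Glycolysis, which shares most steps, had 6 of 12 genes on either side of 0, a median of 0.00 and 0 genes at an unadjusted p of 0.05.

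The promoters of the 3 enzymes were read in the same way, with the same 4 motifs in capitals, since these genes were lower together. They lie at chr11:101367466-101367715 (plus strand), chr2:173152823-173153072 (plus strand) and chr13:62888283-62888532 (minus strand). RefSeq entries were found for 6 of the 6 genes looked up here and above.
G6pc: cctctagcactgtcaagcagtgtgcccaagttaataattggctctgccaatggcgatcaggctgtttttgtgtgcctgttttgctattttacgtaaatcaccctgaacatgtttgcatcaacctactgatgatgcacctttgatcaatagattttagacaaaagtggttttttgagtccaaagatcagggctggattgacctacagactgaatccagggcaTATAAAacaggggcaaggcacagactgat
Pck1: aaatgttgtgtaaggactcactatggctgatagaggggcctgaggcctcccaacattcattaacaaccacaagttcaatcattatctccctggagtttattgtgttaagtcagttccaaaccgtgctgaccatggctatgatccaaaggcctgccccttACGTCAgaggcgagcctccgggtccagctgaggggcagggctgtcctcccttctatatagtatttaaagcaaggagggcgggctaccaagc
Fbp1: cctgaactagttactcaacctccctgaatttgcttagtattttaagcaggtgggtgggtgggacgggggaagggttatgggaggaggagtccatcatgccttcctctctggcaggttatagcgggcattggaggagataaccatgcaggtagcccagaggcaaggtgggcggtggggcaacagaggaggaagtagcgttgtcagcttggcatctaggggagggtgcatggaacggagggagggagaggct
G6pc had 1 TATA box, 29 to 24 bases before its start, and Pck1 1 core of the cAMP response element, on the opposite strand, 91 to 86 bases before its start. Fbp1 had no match to these letters in this window.

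**Figure D3:**
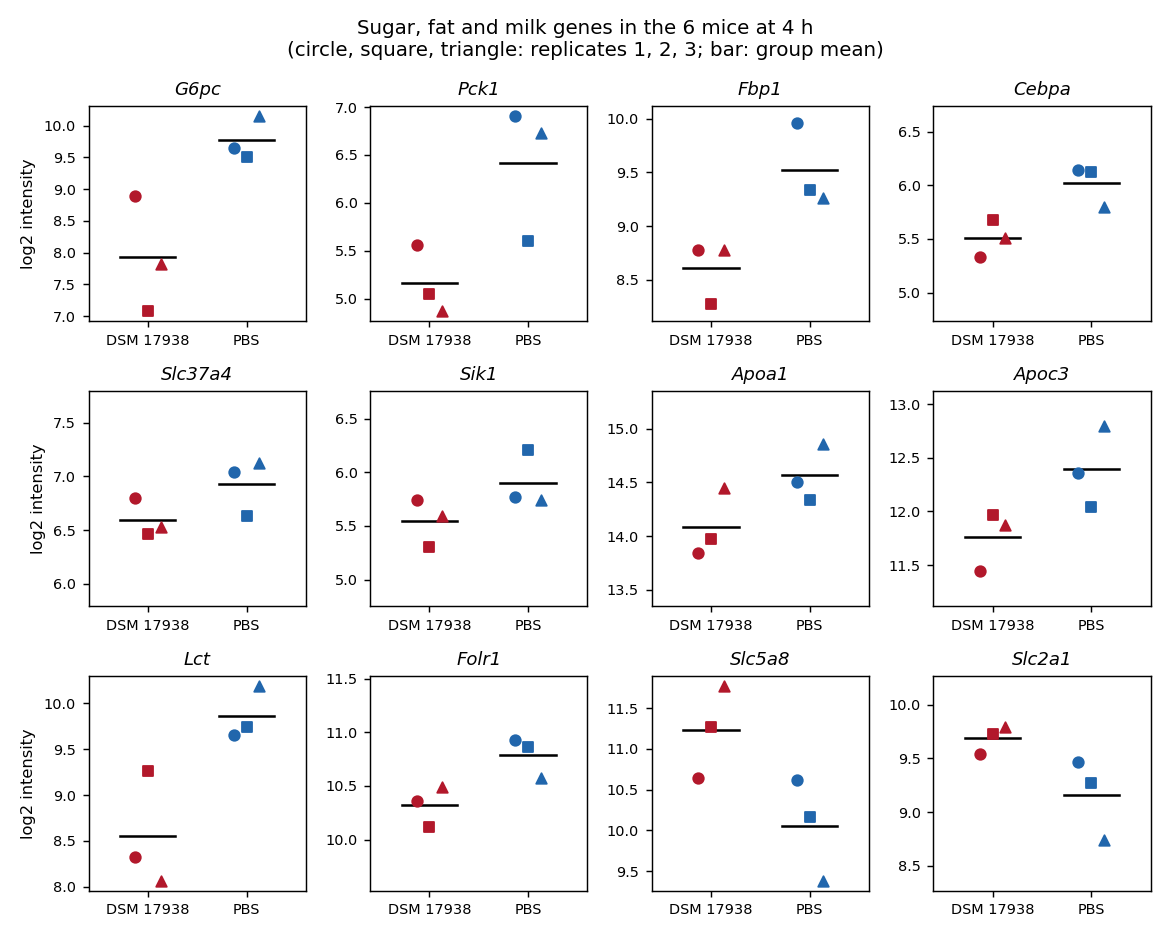
Log2 intensity (y axis) of 12 genes of sugar, fat and milk handling in each of the 3 DSM 17938 pups (left, red) and 3 PBS pups (right, blue), with the group mean as a bar and a symbol for each replicate number. All DSM 17938 pups lie below all PBS pups in G6pc, Pck1, Fbp1 and Lct, and above them in Slc5a8 and Slc2a1.

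Genes that handle milk were read next. Lct, the lactase that splits milk sugar, measured 8.33, 9.26 and 8.06 in DSM 17938 pups and 9.65, 9.74 and 10.19 in PBS pups, without overlap (difference -1.31 ± 0.41, 2.48-fold lower). It was the 1 gene of 12 brush border hydrolases at an unadjusted p of 0.05, which 3.34% of all features reached. Of the 12, 9 lay below 0, where 48.7% of all features did. Folr1, a folate receptor kept here with the milk uptake genes, measured 10.36, 10.11 and 10.49 in DSM 17938 pups and 10.93, 10.87 and 10.57 in PBS pups (difference -0.47 ± 0.19). All 7 milk uptake genes tested, of 8 listed, lay below 0, where 48.7% of all features did, and their median was -0.39. Folr1 alone reached an unadjusted p of 0.05, against 3.34% of all features. The endocytic receptor gene Lrp2 measured 4.95, 5.67 and 7.26 in DSM 17938 pups and 7.99, 6.23 and 6.56 in PBS pups (difference -0.97 ± 0.60), and that of its partner, Cubn, 6.92, 6.73 and 7.76 in DSM 17938 pups and 8.33, 6.84 and 7.61 in PBS pups (difference -0.46 ± 0.35). Both overlapped, and leaving out 1 mouse gave -1.62 to -0.44 for Lrp2 and -0.83 to -0.09 for Cubn, each smallest in size without replicate 1 of the PBS pups. The immunoglobulin receptor Fcgrt, which carries milk antibodies across, differed by -0.36 ± 0.26.

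Of the apolipoproteins that coat chylomicrons, Apoa1 measured 13.84, 13.98 and 14.45 in DSM 17938 pups and 14.50, 14.34 and 14.86 in PBS pups (difference -0.48 ± 0.17). Apoc3, which slows the clearance of these particles, measured 11.44, 11.97 and 11.88 in DSM 17938 pups and 12.35, 12.04 and 12.80 in PBS pups (difference -0.64 ± 0.27). Apoc3 did not overlap between groups, and Apoa1 did. In the list of 7 tested, 6 lay below 0, where 48.7% of all features did, and the median was -0.37. Dgat2, which makes triglyceride, measured 11.23, 11.06 and 11.27 in DSM 17938 pups and 11.97, 11.30 and 11.60 in PBS pups (difference -0.44 ± 0.19). The lipid droplet protein gene Plin3 differed by -0.40 ± 0.19. These were the 2 of 15 genes of triglyceride resynthesis and export at an unadjusted p of 0.05, which 3.34% of all features reached. In that list 13 of 15 lay below 0, with a median of -0.22. Fatty acid oxidation and ketogenesis also had 13 of 15 genes below 0 with a median of -0.17, and 0 at an unadjusted p of 0.05. Fabp1, Fabp2 and Cd36 were not tested, being detected in fewer than 3 arrays.

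A list of 16 tested genes of glucocorticoid response and gut steroid synthesis held 2 lower and 0 higher at an unadjusted p of 0.05. The shares of all features were 1.68% and 1.66%. Cyp11a1, which makes pregnenolone from cholesterol in the first step of steroid synthesis, measured 6.88, 6.39 and 6.94 in DSM 17938 pups and 7.88, 6.89 and 8.03 in PBS pups (difference -0.86 ± 0.32). Sgk1, a kinase induced by corticosteroids, measured 10.75, 9.95 and 10.73 in DSM 17938 pups and 11.13, 10.89 and 11.04 in PBS pups, without overlap (difference -0.55 ± 0.20). Of the 16, 14 lay below 0 with a median of -0.10, while Tsc22d3 and Per1, classic targets of the receptor, differed by -0.05 ± 0.16 and -0.10 ± 0.11. Nr5a2, a nuclear receptor of gut steroid synthesis, measured 9.77, 10.02 and 9.07 in DSM 17938 pups and 9.88, 8.85 and 8.59 in PBS pups, with overlap (difference 0.51 ± 0.40). The arginine synthesis enzyme Ass1 measured 10.43, 10.42 and 10.40 in DSM 17938 pups and 11.24, 10.44 and 10.93 in PBS pups (difference -0.45 ± 0.16). Maf, a transcription factor of the enterocyte programme, differed by -0.42 ± 0.19.

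Most genes of the goblet and enteroendocrine lists lay above 0. Clca1, a protein that goblet cells secrete with mucus, measured 11.73, 11.76 and 11.45 in DSM 17938 pups and 10.94, 11.45 and 11.00 in PBS pups (difference 0.52 ± 0.17). It was the 1 goblet cell gene of 14 at an unadjusted p of 0.05, which 3.34% of all features reached. Of the 14, 13 lay above 0, where 51.3% of all features did, and the median was 0.17. The main mucin gene Muc2 differed by 0.04 ± 0.16. Of 19 enteroendocrine genes, 14 lay above 0 with a median of 0.13. At an unadjusted p of 0.05, 1 was higher and 2 lower, against 1.66% and 1.68% of all features. Vipr1, a receptor of vasoactive intestinal peptide, measured 6.30, 7.11 and 6.30 in DSM 17938 pups and 5.50, 5.47 and 5.56 in PBS pups (difference 1.06 ± 0.25), though other probes gave -0.07 and 0.41. Calcb, which encodes a calcitonin gene-related peptide, measured 5.08, 4.54 and 5.28 in DSM 17938 pups and 5.95, 5.86 and 5.60 in PBS pups (difference -0.84 ± 0.23). These signals are low, and with a larger offset Vipr1 differed by 0.71 and Calcb by -0.45. The granule protein gene Scg3 differed by -0.51 ± 0.19. Htr3a, a subunit of the serotonin-gated channel, measured 5.80, 6.10 and 6.0 in DSM 17938 pups and 6.59, 6.61 and 6.39 in PBS pups (difference -0.56 ± 0.17). The hormone genes Sct, Cck and Gcg differed by 0.14 ± 0.19, 0.01 ± 0.17 and 0.00 ± 0.23.

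The remaining lower genes with the smallest p were diverse. Igsf9, an immunoglobulin-family adhesion protein, measured 12.37, 11.94 and 12.11 in DSM 17938 pups and 12.72, 12.56 and 12.86 in PBS pups (difference -0.57 ± 0.14), and its other probes ranged from -0.77 to -0.12. Fibcd1, a receptor that binds acetylated sugars such as chitin, measured 7.55, 7.84 and 6.83 in DSM 17938 pups and 8.50, 8.04 and 8.63 in PBS pups (difference -0.98 ± 0.28). Ppp1r13b, a p53-binding protein, measured 7.46, 8.47 and 7.16 in DSM 17938 pups and 9.13, 9.08 and 8.57 in PBS pups (difference -1.23 ± 0.39). The groups did not overlap in any of these. Tulp4, Gda, Mettl7b, Tesmin, Acp5 and Nudt9 differed by -0.55, -0.48, -0.60, -0.71, -0.54 and -0.51. A second probe gave 0.23 for Tulp4, -0.04 for Gda and 0.43 for Tesmin, and over the mean of the probes Tulp4 differed by -0.16 and Tesmin by -0.14.

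Some large differences rested on a probe that was dark in 1 or 2 mice and bright in the rest. Ttc27 measured 8.30, 8.28 and 8.19 in DSM 17938 pups and 8.16, 4.90 and 5.08 in PBS pups (difference 2.21 ± 1.04). Ear10, an eosinophil-associated ribonuclease, measured 4.54, 8.35 and 8.63 in DSM 17938 pups and 9.66, 9.85 and 8.86 in PBS pups (difference -2.28 ± 1.16). Its near-identical relative Ear3, which can share signal with it, had the same order of mice, with a difference of -1.81 ± 0.84. The class II genes H2-Ab1 and H2-Eb1 were each dark in a single mouse, the PBS pup of replicate 2 at 4.89 and the DSM 17938 pup of replicate 2 at 5.38. Mgmt, a DNA repair gene, had a bright value of 7.27 in 1 PBS pup and differed by -1.11 ± 0.97. Ubd, an interferon-induced ubiquitin-like protein, was detected in 0 DSM 17938 pups and 3 PBS pups and was at least 2.18-fold lower. The cause of these dark probes was not tested. In all, 24 features were detected in every DSM 17938 pup and no PBS pup, and 32 in every PBS pup and no DSM 17938 pup.

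**Figure D4:**
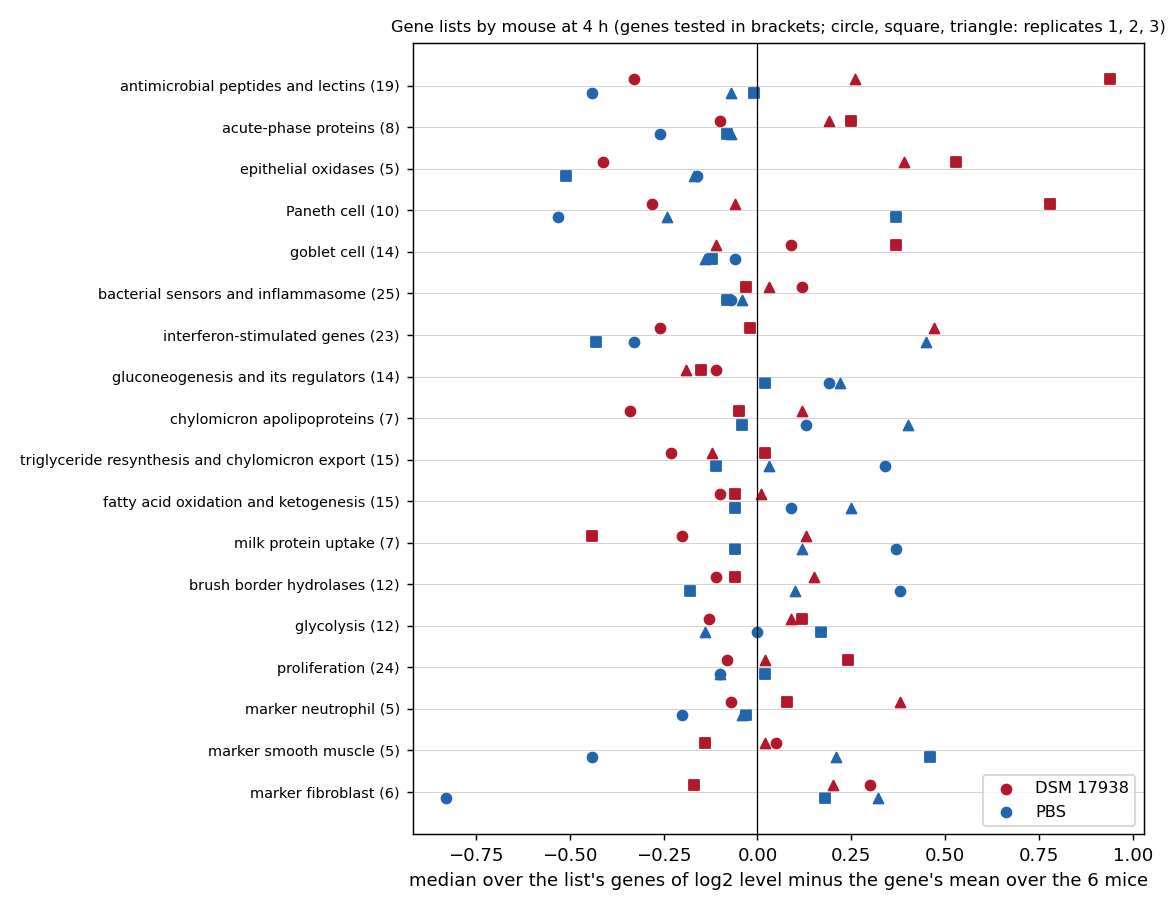
Each row is a gene list with the number of genes tested, and each symbol is the median over the list's genes of the log2 level minus that gene's mean over the 6 mice (x axis), in DSM 17938 pups (red, upper) and PBS pups (blue, lower). The 3 DSM 17938 pups lie from -0.19 to -0.11 for gluconeogenesis and the 3 PBS pups from 0.02 to 0.22, whereas in the antimicrobial, acute-phase and oxidase lists the groups overlap.

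The lists of housekeeping processes lay near the median of all features. Proliferation genes had a median difference of 0.07, heat shock proteins 0.00, junction proteins -0.01, the unfolded protein response 0.04 and immediate early genes 0.03, each with 0 genes at an unadjusted p of 0.05. The respiratory chain had a median of -0.05 and cholesterol synthesis -0.02, again with 0 such genes. Fabp6, the ileal bile acid-binding protein, measured 9.35, 11.75 and 10.12 in DSM 17938 pups and 9.24, 7.55 and 9.44 in PBS pups, a wide spread within both groups (difference 1.66 ± 0.99). Of the T cell markers, Itgae, the integrin of intraepithelial lymphocytes, measured 7.58, 7.13 and 7.34 in DSM 17938 pups and 6.41, 7.0 and 6.78 in PBS pups (difference 0.62 ± 0.25), while Cd3e, Cd3g and Cd3d differed by 0.03 ± 0.33, -0.09 ± 0.43 and -0.29 ± 0.41. Of these 4 tested markers 2 lay above 0, and the median was -0.03.

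The same difference was measured at 24 h in 6 other mice, of which 2 of 3 DSM 17938 pups and 1 of 3 PBS pups were male. There 838 of the 16835 features reached an unadjusted p of 0.05, 430 higher and 408 lower. A share of about 0.05 would be expected if none differed. Of the features that reached it at both times, 50 were in the same direction and 2 in opposite directions. The 50 are 8.9% of the 562 features at 4 h and 5.97% of those at 24 h. Beside these stand 838 and 562 of 16835 among all features, in either direction. Saa3 measured 8.52, 8.93 and 9.08 in DSM 17938 pups and 5.69, 5.49 and 5.0 in PBS pups at 24 h, so that all 3 treated mice were high and the difference was 3.45 ± 0.78. Clec2d, Nfkbiz and Noxo1 differed by 0.41 ± 0.13, 0.35 ± 0.14 and 0.49 ± 0.20 at 24 h. Of the genes that were lower at 4 h, Fbp1 differed by -0.60 ± 0.27, Cebpa by -0.58 ± 0.21 and Ppp1r13b by -1.07 ± 0.39 at 24 h. Of the 30 genes with the smallest p at 4 h, 21 had the same sign at 24 h, and so did 59.3% of all features.

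A test of whether the difference itself changed between 4 h and 24 h, as an interaction in the same limma fit, gave 0 features at an adjusted p of 0.05 and 372 at an unadjusted 0.05 (2.21%), and the lowest adjusted p was 1. Among the named genes, Agr2, a goblet cell disulphide isomerase, had a difference of 0.33 ± 0.18 at 4 h and -0.74 ± 0.18 at 24 h (interaction 1.07 ± 0.25, the value at 4 h minus that at 24 h). Clca1 differed by 0.52 ± 0.17 at 4 h and by -0.39 ± 0.17 at 24 h (interaction 0.91 ± 0.24). Slc5a8 differed by 1.18 ± 0.32 at 4 h and by -0.42 ± 0.32 at 24 h (interaction 1.59 ± 0.45), and Zmynd15 by 0.90 ± 0.16 at 4 h and 0.01 ± 0.16 at 24 h (interaction 0.89 ± 0.23). Camp, G6pc, Lct and Duoxa2 had smaller differences at 24 h, of 0.47 ± 0.37, -0.39 ± 0.39, 0.22 ± 0.41 and -0.14 ± 0.56, and interactions of 1.46 ± 0.53, -1.45 ± 0.55, -1.53 ± 0.57 and 1.94 ± 0.80. For Saa3 the interaction was -0.03 ± 1.10. The genes of this paragraph are some of those named by their 4 h values, which the interaction contains, and not all named genes are given. Smaller differences at 24 h and large interactions are therefore partly expected from the choice. Agr2 is an exception, with its larger difference at 24 h.

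**Figure D5:**
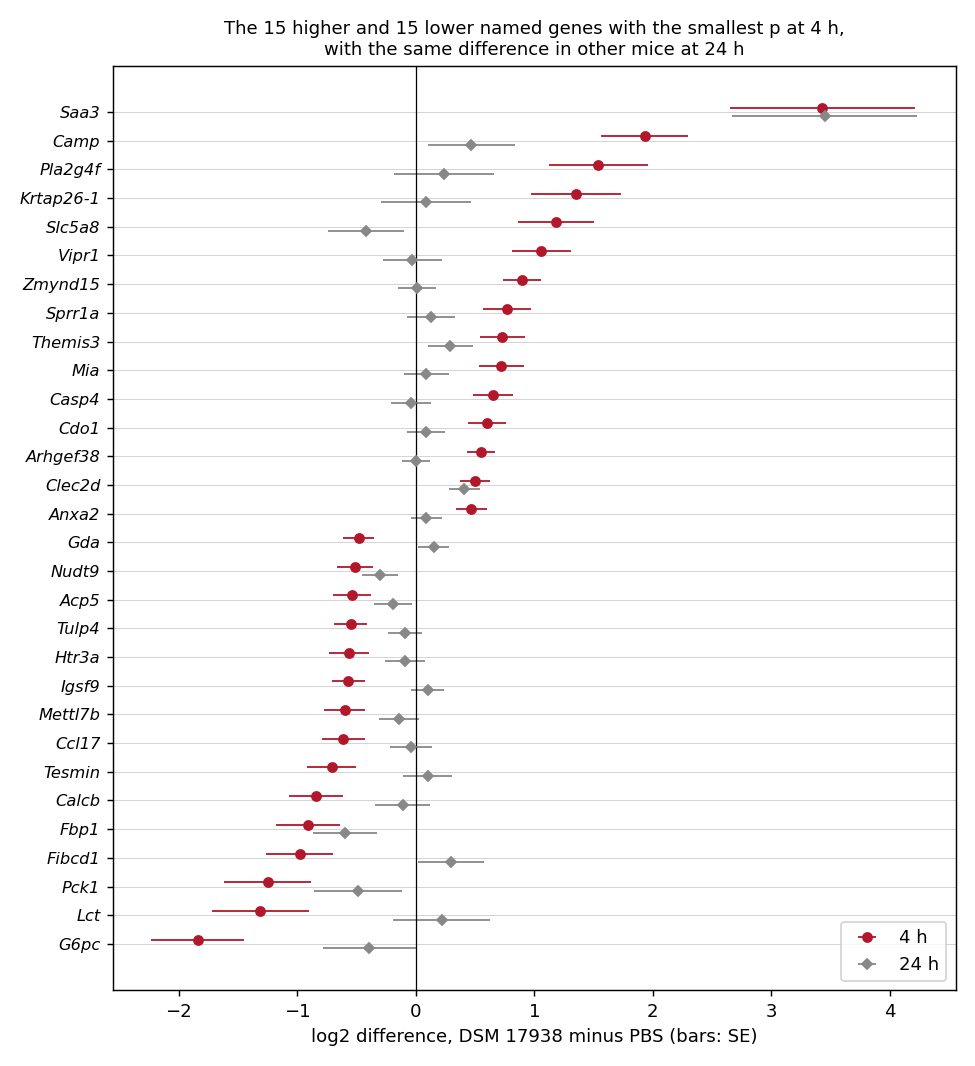
For the 15 higher and 15 lower named genes with the smallest p at 4 h, the log2 difference between DSM 17938 and PBS pups with its SE (x axis) is shown at 4 h (red circles) and in other mice at 24 h (grey diamonds). Saa3 is at 3.43 and 3.45, and Fbp1 at -0.91 and -0.60, while Slc5a8, Lct and Fibcd1 lie on opposite sides of 0.

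Against the pups given the other strain at 4 h, a direct test found 0 features at an adjusted p of 0.05 and 569 at an unadjusted 0.05 (3.38%), and the lowest adjusted p was 1. Saa3 stood at 5.48, 10.48 and 9.15 in DSM 17938 pups and at 4.84, 5.62 and 4.78 in ATCC PTA 6475 pups, a difference of 3.29 ± 0.78. G6pc stood at 8.90, 7.08 and 7.82 in DSM 17938 pups and at 8.66, 9.60 and 9.52 in ATCC PTA 6475 pups, a difference of -1.33 ± 0.39. For Slc5a8 the difference between strains was 1.31 ± 0.32, for Casp4 0.71 ± 0.17, for Camp 1.4 ± 0.37, for Duoxa2 2.0 ± 0.56 and for Pck1 -1.35 ± 0.37. These genes, Saa3 and G6pc included, were chosen by their values in the same DSM 17938 arrays. A difference from a further group is partly expected from that choice, so these values are no separate support. Without the DSM 17938 pup of replicate 1, 8 features passed the adjusted test of strains, all 8 higher in DSM 17938 pups. The strains differed in sex, with 1 male among the 3 DSM 17938 pups and 3 among the 3 ATCC PTA 6475 pups. With sex as a term, 0 features passed and 566 reached the unadjusted 0.05, and the differences were 3.59 ± 0.86 for Saa3, -1.37 ± 0.44 for G6pc and 1.17 ± 0.40 for Camp. Set beside the same PBS mice, the ATCC PTA 6475 pups differed from them by 0.13 in Saa3, 0.53 in Camp, -0.51 in G6pc, 0.09 in Pck1 and -0.13 in Slc5a8, and these values share their PBS arrays with those of DSM 17938.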

How the data were processed

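RNA of laser-captured ileal epithelium was hybridised to Illumina mouse bead arrays, 1 per mouse. The deposited table holds, per probe and array, an intensity that was not normalised and a detection value, a fraction from 0 to 1. The detection value is a detection p-value per the file headers, but it is near 1 for bright probes, so it was read as 1 minus p. GenomeStudio is named in the submitters' processing notes, with no version given in the sources used here. A deposited log2 table of the same arrays matched a quantile normalisation of these intensities without background correction, and served as an alternative.

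The deposited intensity was corrected against the detection p-values so obtained (neqc in limma 3.58.1, R 4.3.3, offset 16), quantile-normalised and taken to log2. Probes detected (p of 0.05) in at least 3 of 18 arrays were kept, 24506 in all. Each gene was read from its brightest such probe, and 4031 probes without a gene name were kept singly. One model over all 18 arrays with a mean per group was fitted with lmFit and eBayes (12 residual and 4.251 prior degrees of freedom), and p-values were adjusted over all 16835 features. With 3 mice against 3, an exact permutation test could not give a two-sided p under 0.1. Each p-value sets a difference against the spread between mice within groups, pooled over all 18 arrays, and the number of arrays limits the precision. A gene undetected in every array of a group is given as a bound. The script was tested on simulated data.

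Genes named are the 15 higher and 15 lower with the smallest p, the 8 higher and 8 lower with the largest difference without overlap, and in each of 50 lists up to 5 members with the smallest p plus members named for their role. Muc2, Tsc22d3, Per1, Sct, Cck, Gcg and Slc37a4 were named for their role. Members and lists were chosen with earlier results of these data known. Of 743 list members, 682 had a named probe and 593 were tested. Same-numbered mice were not treated as pairs: the correlations of their deviations from the group means were 0.036, -0.047 and 0.265.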

Additional observations from a re-analysis of the deposited data

How the results depend on the processing

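In DSM 17938 pups against PBS pups at 4 h, 0 features passed the adjusted test under a larger offset, with median scaling or array weights, from the authors' deposited log2 table, with sex as a term, over the mean of all probes, in the 6 arrays alone, or when detection was required more strictly or not at all. Leaving out 1 mouse in turn gave 0 to 10, and for DSM 17938 against ATCC PTA 6475 0 to 8, in both cases above 0 only without DSM 17938 replicate 1. At an unadjusted p of 0.05, the 562 features became 309 under median scaling and 1088 without a detection filter. The 569 features of the comparison of strains became 243 and 1057, and the 372 of the interaction with time became 197 and 804. With the replicate number as a block, 0 features passed in any of the 3 tests. At the unadjusted p there were 794 at 4 h, 712 between strains and 574 in the interaction. Of 18 arrays, 15 correlated best with an array of their own number. The array labels also run in order of replicate number, each run holding every group, but they do not say what a run stands for. Median scaling moved the median of all features to -0.067 and that of gluconeogenesis to -0.38, and the stricter filter moved the acute-phase median to 0.87 with 5 genes left. Leaving out 1 mouse gave list medians of 0.15 to 0.63 for antimicrobial genes, 0.35 to 0.71 for oxidases, 0.21 to 0.32 for acute-phase genes, -0.28 to -0.21 for gluconeogenesis, -0.40 to -0.16 for apolipoproteins, -0.28 to -0.09 for triglyceride genes, -0.24 to -0.07 for fatty acid oxidation and -0.55 to -0.25 for milk uptake. The filters also changed the number of features tested, to 29453 without a detection filter and 12541 with the stricter one. The cause of the changed counts was not tested for any setting. Of 256 named genes, 217 kept the sign of their difference under every setting run and 39 did not, among them Cd3e, with the same sign in 10 of 16 settings, and Slc5a1, in 12 of 16; the median of the bacterial sensors was -0.01 under median scaling. Sex as a term in the comparison of strains, chosen after seeing the data, gave 0 and 566 features.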

Other observations

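Several genes outside the lists had an unadjusted p of 0.05 in the same direction at both times, in separate mice, and were named after their values were seen. Auts2, a gene of neuronal development, measured 11.57, 11.37 and 11.32 in DSM 17938 pups and 10.81, 11.02 and 11.11 in PBS pups at 4 h (difference 0.44 ± 0.13), and differed by 0.29 ± 0.13 at 24 h. Pik3r1, the regulatory subunit of phosphoinositide 3-kinase, measured 12.05, 11.89 and 11.81 in DSM 17938 pups and 11.43, 11.60 and 11.56 in PBS pups at 4 h (difference 0.39 ± 0.15), and differed by 0.42 ± 0.15 at 24 h. The metal reductase gene Steap2 measured 6.97, 6.75 and 6.94 in DSM 17938 pups and 7.29, 7.25 and 7.29 in PBS pups at 4 h (difference -0.39 ± 0.14), and differed by -0.41 ± 0.14 at 24 h. None passed the adjusted test of limma at either time.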
